A study of Homo sapiens with 18 samples.

Results

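The replicative helicase genes were the rows of the deposited expression table with the symbols MCM2, MCM3, MCM4, MCM5, MCM6, MCM7, CDC45, GINS1, GINS2 and GINS3, which were 10 of the 26668 gene symbols listed. All 10 were measured in PANC-1, MIA PaCa-2 and PaTu 8988T, which are 3 established lines from human pancreatic cancers. Each line had 3 control libraries and 3 libraries in which OFD1, a centrosome and cilium protein, had been knocked down, giving 18 libraries. The knockdown cells carried an shRNA against OFD1 that doxycycline switches on and were collected after 72 h of doxycycline. The control labels name a control shRNA, a wild-type genotype and no treatment, whereas the methods of the study describe DMSO-treated cells that carry the OFD1 shRNA. Doxycycline was named for the knockdown groups only, and its own effect cannot be told apart from that of the shRNA. The shRNA sequence used for these libraries was not given in the sources used here.

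DNA is unwound at the replication fork by a multi-protein helicase, known as CMG from its parts CDC45, MCM and GINS. MCM2 to MCM7 form a ring that is loaded on origins as an inactive pair of hexamers in G1, and CDC45 and the GINS complex join the ring to activate it at the start of S phase. Transcription of these genes is cell-cycle dependent and is controlled by E2F factors, with repression by E2F4 and the DREAM complex in quiescent cells. The genes are widely used as markers of proliferating cells in tumors. The GINS subunit GINS4 was not among the chosen rows and is described with the partner genes.

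Values were FPKM, that is, reads on a gene scaled by the length of the gene and by the reads of the library. The reads behind the values ranged from 32486479 to 39797537 per library. Gene lengths behind the PANC-1 columns differed from those of the other lines for some genes, for example 2414 bases for CDC45 in PANC-1 and 2418 bases in the others, so levels were compared within a line only. OFD1 itself had 5.5, 5.12 and 5.67 FPKM in the PANC-1 controls and 2.8, 2.27 and 2.58 FPKM in the knockdown, and its log2 fold change, with the standard error (SE) and the p-value adjusted over all tested genes, was -1.07 (SE 0.0901 with adjusted p = 2.7e-06). In MIA PaCa-2 it had 3.09, 2.27 and 3.2 FPKM in the controls and 1.76, 1.74 and 1.97 FPKM in the knockdown, a log2 change of -0.61 (SE 0.159 with adjusted p = 0.0232), or -0.76 without control replicate 2. That call passed in 8 of 14 alternative analyses. In PaTu 8988T it had 2.14, 1.93 and 2.12 FPKM and then 0.986, 0.894 and 0.854 FPKM, a log2 change of -1.10 (SE 0.103 with adjusted p = 5.47e-05). OFD1 was lower in every knockdown library than in every control of its line. The epithelial keratins KRT8 and KRT18 had at least 316 FPKM in every library, whereas CDH1 stayed at or below 0.0321 FPKM in MIA PaCa-2 and KRT19 at or below 0.0194 FPKM in PaTu 8988T. Of the 11 markers of other cell types, CD3E, INS and CPA1 were at 0 FPKM in every library. CD68 had 17 to 37.7 FPKM in PANC-1, 45.6 to 71.1 FPKM in MIA PaCa-2 and 9.77 to 13.9 FPKM in PaTu 8988T. COL3A1 had 9.81 to 18 FPKM in PANC-1 and 2.79 to 3.69 FPKM in PaTu 8988T, and COL1A1 had 22 to 26.6 FPKM in PANC-1. The summed level of those 11 markers was 67.1 to 74.8 FPKM in the PANC-1 controls and 57.8 to 60.2 FPKM in the knockdown. It was 55.7 to 73.5 FPKM in the MIA PaCa-2 controls and 104 to 107 FPKM in the knockdown, and 16.7 to 17.1 FPKM and then 13 to 14.7 FPKM in PaTu 8988T. In MIA PaCa-2, COL3A1 ranged from 6.03 to 30.6 FPKM and PTPRC from 2.32 to 6.22 FPKM over the libraries. The part of these markers in the changes of the helicase genes was not tested. In bulk RNA of these cell line cultures, fewer cells expressing a gene and less of its RNA per cell cannot be told apart.

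MIA PaCa-2 control replicate 2 stood apart from the other libraries of that line. Its log2 values had a standard deviation of 0.516 over genes against the mean of the other controls, whereas each of the other 17 libraries, set against the other replicates of its group, had between 0.122 and 0.281. Among the helicase genes it was high for MCM2, MCM5, MCM7, MCM3 and CDC45 and low for GINS1 and MCM4. The deviation of MCM2 from the mean of controls 1 and 3 was 0.60 on the log2 scale and that of GINS1 was -0.33. Across the 10 genes, the deviation had a Pearson correlation of 0.841 with the GC content of the longest coding transcript. Over 9902 tested genes the correlation was 0.879, and these points share the 3 libraries. Fold changes printed for MIA PaCa-2 are therefore given with and without this library, as are the counts of listed genes that fell or rose. Summed levels, orders of levels, correlations and most differences between lines are given with it only.

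E2F words at the helicase genes are shown as a description, and their part in the changes with the knockdown was not tested. RefSeq promoters of the build GRCh38.p14 were searched from 250 bases before to 50 bases after the transcription start, on both strands, and 8 of the 10 genes had at least 1 start in the table, giving 12 starts. MCM4 and MCM5 were not matched. The words searched for E2F were TTCCCGC first, then the variant TTGGCGC, then the variant TTCGCGC, and last the variant TTGCCGC, and at least 1 of them occurred at 7 of the 8 genes, all but CDC45, and at 8 of 12 starts. Of all 35116 promoters, 13% held at least 1 of these words. CCAAT occurred at 6 of the 8 genes, at 9 of 12 starts, and in 34.6% of all promoters. The CHR words, TTTGAA with the variant TTCGAA, occurred at MCM6 only, at 1 of 12 starts, and in 16.4% of all promoters. The site nearest the start is shown for each gene, and both sites of MCM6, each on the strand of the gene. The named bases are those of the capitals, which mark the E2F word or a pair of words that overlap, and are counted with 1 at the start and -1 just before it.

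MCM2, chr3:127598404-127598433, plus strand, bases 4 to 13: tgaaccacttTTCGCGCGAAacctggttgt

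MCM3, chr6:52284728-52284756, minus strand, bases -3 to 4: gttcggaagttTTCGCGCcggggtggagt

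MCM6, chr2:135876513-135876542, minus strand, bases -89 to -80: ttggtcaggtTTGGCGCGAAatctccagct

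MCM6, chr2:135876575-135876604, minus strand, bases -151 to -142: ggctttgcatTTGGCGCGAAatccctttcc

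MCM7, chr7:100101386-100101415, minus strand, bases -8 to 2: ggggcgacgtTTCGCGCCAAtttcggttgg

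GINS1, chr20:25407667-25407695, plus strand, bases 6 to 12: agctttgttcgGCGCCAAagcgcggagcg

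GINS2, chr16:85688968-85688996, minus strand, bases -31 to -25: ctctcgccgtgGCGGGAAaacggcggccg

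GINS3, chr16:58392455-58392483, plus strand, bases -5 to 2: cgtccccgggcGCGGGAAacgagtttcaa

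MCM6 held the overlapping pair of words 2 times, and its 250 bases before the start are shown with every searched word in capitals, CHR and CCAAT included.

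MCM6, chr2:135876444-135876693, minus strand, 250 bases before the start: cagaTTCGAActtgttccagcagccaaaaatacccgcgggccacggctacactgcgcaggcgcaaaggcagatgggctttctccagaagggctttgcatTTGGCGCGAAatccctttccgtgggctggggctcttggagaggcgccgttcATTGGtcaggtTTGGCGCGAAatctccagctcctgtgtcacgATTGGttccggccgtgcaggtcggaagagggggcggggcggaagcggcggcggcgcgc

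A word match is a description of these letters and not of a bound factor, and no binding was measured in these libraries.

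In PANC-1, all 10 helicase genes fell after OFD1 knockdown, and no knockdown library reached the lowest control for any of them. Of 10902 genes tested, 32.2% fell, 40.1% rose, and 33.4% had all knockdown libraries below all controls. The median log2 fold change of the 10 genes was -0.86 and that of all tested genes was 0.06. Of the 10 genes, 3 fell past 2-fold, as did 4.84% of tested genes, and all 3 belonged to the activators CDC45, GINS1 and GINS2.

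In the ring, MCM7, which pairs with MCM4 and MCM6 in the catalytic core, was the most abundant subunit in PANC-1, with 92.3, 96.6 and 92.3 FPKM in the controls and 55.5, 55.5 and 56.0 FPKM in the knockdown. The log2 fold change was -0.75 (SE 0.0276 with adjusted p = 6.61e-09). MCM5, which forms with MCM2 the gate through which the ring opens, had 25.7, 26.3 and 24.0 FPKM in the controls and 13.1, 13.2 and 11.9 FPKM in the knockdown. Its log2 fold change was -0.99 (SE 0.0538 with adjusted p = 9.9e-08), the largest fall of the 6 ring subunits in this line. MCM2 fell from 34.5 ± 1.92 to 18.4 ± 1.37 FPKM (mean ± SD, n = 3 per group), with a log2 fold change of -0.91. MCM3, the partner of MCM5 in the ring, had control levels of 50.7, 52.2 and 50 FPKM and knockdown levels of 32.4, 30.4 and 31.6 FPKM, a log2 fold change of -0.70. MCM4 fell from 36.6 ± 0.268 to 20.8 ± 0.504 FPKM (mean ± SD, n = 3 per group), with a log2 fold change of -0.81. MCM6 had the smallest fall of the ring, from 29 ± 1.02 to 18.3 ± 0.783 FPKM (mean ± SD, n = 3 per group) and a log2 fold change of -0.66 (SE 0.0444 with adjusted p = 5.09e-07).

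CDC45 had 12.6, 12.5 and 11 FPKM in the PANC-1 controls and 4.77, 4.03 and 4.38 FPKM in the knockdown. The log2 fold change was -1.43 (SE 0.0787 with adjusted p = 1.08e-07). GINS1, a core subunit of GINS, had 12.8, 11.9 and 11.3 FPKM in the controls and 4.17, 4.24 and 4.27 FPKM in the knockdown, a log2 fold change of -1.48 (SE 0.06 with adjusted p = 1.21e-08). GINS2, which contacts MCM5, had a log2 fold change of -1.66 (SE 0.106 with adjusted p = 3.26e-07), from 4.24, 4.28 and 3.78 FPKM to 1.25, 1.09 and 1.34 FPKM. The order of these activators depended on the pseudocount, since with 1 in place of 0.1 the log2 change was -1.19 for GINS2, -1.31 for GINS1 and -1.27 for CDC45. GINS2 was also the gene with the fewest reads, between 94 and 416 per library in PANC-1. GINS3, also a GINS subunit, had the smallest fall of these 4 activators. Its control levels were 5.75, 5.37 and 6.12 FPKM, its knockdown levels were 4.01, 3.08 and 3.35 FPKM, and the log2 fold change was -0.72 (SE 0.0996 with adjusted p = 0.000104). Relative to the mean log2 level of MCM2 to MCM7 in the same library, the knockdown minus control value was -0.63 for CDC45, -0.68 for GINS1, -0.86 for GINS2 and 0.09 for GINS3.

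**Figure D1:**
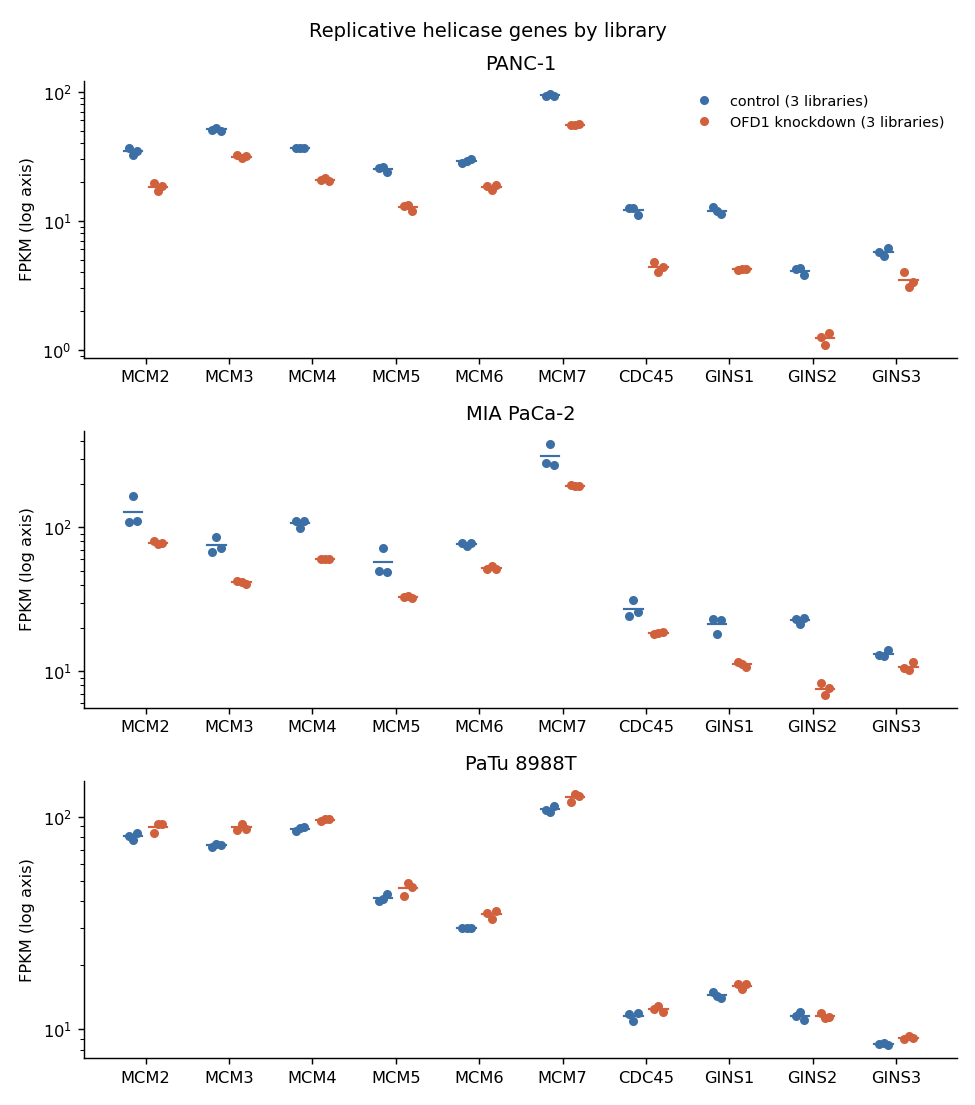
FPKM of the 10 genes on a log axis in each library, with control in blue and knockdown in orange, bars for the mean of 3 libraries and 1 panel a line. In PANC-1 and MIA PaCa-2 all knockdown points lie below all control points of the same gene, and in PaTu 8988T they lie above them for 8 of 10 genes.

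In MIA PaCa-2, all 10 helicase genes fell as well, and all knockdown libraries were below all controls for each. Of 10758 genes tested, 21.7% fell, 18.7% rose, and 31.3% had all knockdown libraries below all controls. The median log2 fold change of the 10 genes was -0.73 and that of all tested genes was -0.03. Past 2-fold, 1 of the 10 genes fell, GINS2, a condition that 3.68% of tested genes met. Without control replicate 2, all 10 genes fell again, the median was -0.59, 2 genes were past 2-fold, GINS2 and GINS1, and 39.8% of all tested genes fell.

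MCM7 had 279, 380 and 272 FPKM in the MIA PaCa-2 controls and 195, 194 and 192 FPKM in the knockdown, with the highest control value in replicate 2. The log2 fold change was -0.66 (SE 0.129 with adjusted p = 0.00779) and -0.51 without that replicate. MCM2 had 109, 165 and 110 FPKM in the controls and 79.8, 77.0 and 78.3 FPKM in the knockdown, a log2 fold change of -0.68 (SE 0.165 with adjusted p = 0.0178) and -0.48 (adjusted p = 4.71e-07) without control replicate 2. MCM2 was the gene whose fold change the library moved most. Leaving out any of the knockdown libraries in turn left MCM2 with adjusted p from 0.0599 to 0.0671. MCM4 had 111, 99.1 and 111 FPKM in the controls and 60.6, 60.2 and 60.3 FPKM in the knockdown, and was lower in control replicate 2 than in the other controls. Its log2 fold change was -0.83 (SE 0.0716 with adjusted p = 0.000452), or -0.88 without it. MCM6 had 77.2, 74.2 and 77.8 FPKM in the controls and 51.6, 53.7 and 51.4 FPKM in the knockdown, a log2 fold change of -0.55 (SE 0.0632 with adjusted p = 0.00114) and -0.57 without control replicate 2. MCM6 was the ring subunit with the smallest fall in this line when all libraries were used. MCM3 had 67.6, 86.2 and 71.5 FPKM in the controls and 42.4, 41.5 and 40.7 FPKM in the knockdown, with a log2 change of -0.84 (adjusted p = 0.00135) and -0.74 without that control. MCM5 had 50.1, 71.9 and 49.3 FPKM in the controls and 32.6, 33.1 and 32.2 FPKM in the knockdown, with a log2 change of -0.78 (adjusted p = 0.00747) and -0.61 without that control. Both were highest in control replicate 2.

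GINS2 had 23.2, 21.4 and 23.6 FPKM in the MIA PaCa-2 controls and 8.24, 6.83 and 7.72 FPKM in the knockdown. The log2 fold change was -1.57 (SE 0.101 with adjusted p = 0.000192) and -1.61 without control replicate 2, the largest of the 10 genes. GINS1 had 23.0, 18.2 and 22.8 FPKM in the controls and 11.6, 11.3 and 10.8 FPKM in the knockdown, with log2 fold changes of -0.91 (SE 0.114 with adjusted p = 0.00152) and -1.02 without that replicate. CDC45 had 24.4, 31.1 and 25.9 FPKM in the controls and 18.3, 18.6 and 18.7 FPKM in the knockdown. Its log2 fold change was -0.54 (SE 0.106 with adjusted p = 0.00816) with all libraries and -0.44 without control replicate 2. GINS3 had 13, 12.8 and 14.0 FPKM in the controls and 10.5, 10.2 and 11.7 FPKM in the knockdown, the smallest fall of the 10 genes, with a log2 fold change of -0.29 (SE 0.0933 with adjusted p = 0.044). The call of GINS3 was kept in 6 of 15 alternative analyses, in which adjusted p ranged from 0.000592 to 0.173, and without control replicate 2 it was 0.00208. Relative to the mean log2 level of MCM2 to MCM7, the knockdown minus control value was -0.85 for GINS2, -0.19 for GINS1, 0.18 for CDC45 and 0.43 for GINS3. Without control replicate 2 these values were -0.98, -0.39, 0.19 and 0.31.

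In PaTu 8988T, none of the 10 helicase genes fell and 6 rose, with log2 fold changes between 0.14 and 0.28. Of 10698 genes tested, 18.5% fell and 20.9% rose, and 27.9% had all knockdown libraries above all controls, as did 8 of the 10 helicase genes. None of the 10 fell past 2-fold, against 0.841% of tested genes. The median log2 fold change of the 10 genes was 0.14 and that of all tested genes 0.03.

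MCM3 rose most in PaTu 8988T, from 72.3, 74.5 and 73.9 FPKM in the controls to 86.9, 92.7 and 87.7 FPKM in the knockdown. The log2 fold change was 0.28 (SE 0.0376 with adjusted p = 0.000501). MCM6 rose from 30 ± 0.16 to 34.7 ± 1.53 FPKM (mean ± SD, n = 3 per group), a log2 fold change of 0.21 (SE 0.0423 with adjusted p = 0.00375). MCM7 rose from 108, 105 and 112 FPKM to 117, 128 and 125 FPKM, a log2 fold change of 0.18 (SE 0.0425 with adjusted p = 0.0079). MCM4 rose from 87.8 ± 1.58 to 96.9 ± 1.2 FPKM (mean ± SD, n = 3 per group), a log2 fold change of 0.14 (SE 0.0332 with adjusted p = 0.00854). MCM2 rose from 81.0, 77.9 and 83.8 FPKM to 84.1, 92.2 and 92.5 FPKM, a log2 change of 0.15 (adjusted p = 0.0335). GINS1 rose from 14.9, 14.3 and 14.1 FPKM to 16.3, 15.4 and 16.3 FPKM, a log2 change of 0.14 (adjusted p = 0.0343). Each of these 2 calls was lost in 7 of 15 alternative analyses, with adjusted p up to 0.129 and 0.123.

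The remaining 4 genes did not pass the test in PaTu 8988T. MCM5 had 40.2, 40.9 and 43.2 FPKM in the controls and 42.2, 48.8 and 46.9 FPKM in the knockdown, which overlap. Its log2 fold change was 0.15 (95% interval 0.02 to 0.27, adjusted p = 0.0647), and it passed the test in 4 of 15 alternative analyses. CDC45 had 11.8, 10.9 and 11.9 FPKM in the controls and 12.4, 12.9 and 12.1 FPKM in the knockdown, a log2 change of 0.11 (95% interval -0.01 to 0.22). GINS3 had 8.55, 8.62 and 8.4 FPKM in the controls and 9.04, 9.3 and 9.06 FPKM in the knockdown, a log2 change of 0.10 (95% interval -0.01 to 0.20). All knockdown libraries were above all controls for both genes. GINS2, which fell past 2-fold in both other lines, had 11.5, 12 and 11 FPKM in the controls and 11.9, 11.3 and 11.4 FPKM in the knockdown. Its 95% interval ran from -0.11 to 0.11 on the log2 scale.

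**Figure D2:**
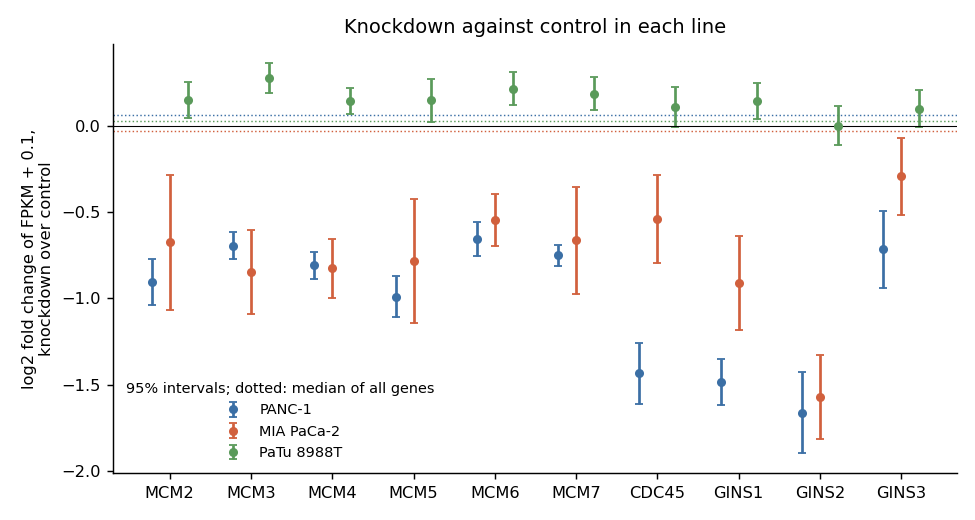
Log2 fold change of knockdown over control for each gene in each line, on the scale of FPKM + 0.1, with 95% intervals. The dotted lines are the medians of all tested genes. PANC-1 and MIA PaCa-2 lie below 0 for all 10 genes, with GINS2 at -1.66 and -1.57, while PaTu 8988T lies between 0.00 and 0.28.

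Whether the knockdown effect differed between lines was tested as an interaction term over all 18 libraries, for the 9083 genes that averaged 1 FPKM or more in each line. All 10 helicase genes differed between PANC-1 and PaTu 8988T, where 35.8% of tested genes did, and all 10 between MIA PaCa-2 and PaTu 8988T, where 52.9% did. These comparisons share the PaTu 8988T libraries. For GINS2 the difference was -1.66 (SE 0.119 with adjusted p = 3.84e-08) for PANC-1 minus PaTu 8988T, or -1.19 with a pseudocount of 1, and -1.57 (SE 0.119 with adjusted p = 3.38e-08) for MIA PaCa-2 minus PaTu 8988T. The smallest was that of GINS3, -0.81 (adjusted p = 7.18e-05) and -0.39 (adjusted p = 0.0122). Without MIA PaCa-2 control replicate 2 all 10 genes differed again in both comparisons. The share of all tested genes that differed in that fit was not counted.

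Between PANC-1 and MIA PaCa-2, 3 of the 10 genes differed, CDC45, GINS1 and GINS3, and 43.4% of tested genes did. CDC45 fell by 0.89 more on the log2 scale in PANC-1 (95% interval of the difference -1.15 to -0.63, adjusted p = 3.05e-05). The difference was -0.57 for GINS1 (95% interval -0.81 to -0.34, adjusted p = 0.00064) and -0.42 for GINS3 (95% interval -0.68 to -0.17, adjusted p = 0.0103). GINS2 had a difference of -0.09 (95% interval -0.34 to 0.16), and MCM4 had 0.02 (95% interval -0.12 to 0.15). With MIA PaCa-2 control replicate 2 left out, 6 genes differed, MCM2, MCM5 and MCM7 being added with differences of -0.43, -0.38 and -0.24. Here too the share of all tested genes was not counted.

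**Figure D3:**
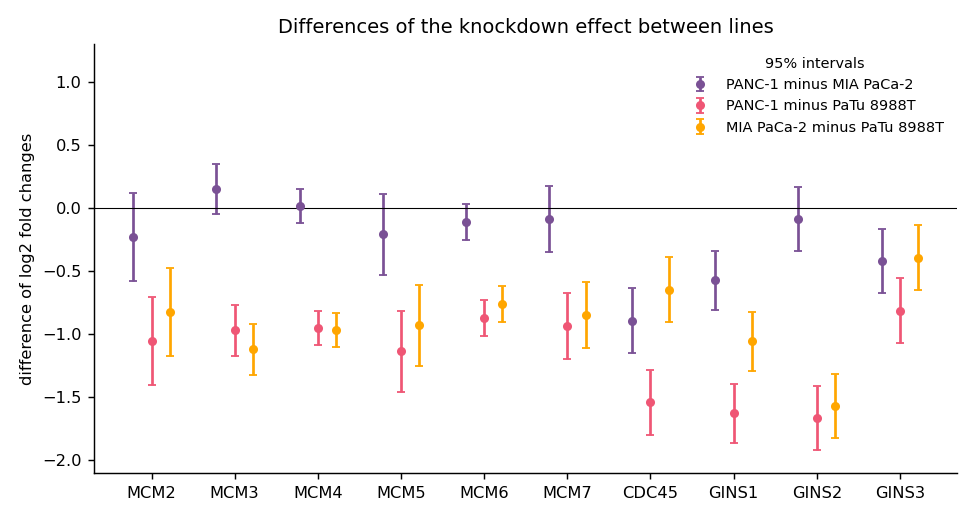
Difference of the log2 fold changes between each pair of lines for the 10 genes, with 95% intervals. The comparisons with PaTu 8988T lie below 0 for all 10 genes, and PANC-1 minus MIA PaCa-2 lies clear of 0 for CDC45 (-0.89), GINS1 (-0.57) and GINS3 (-0.42).

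Subunits of the ring were compared within a library, since FPKM is scaled by length. The summed level of MCM2 to MCM7 went from 270 ± 3.26 to 157 ± 2.53 FPKM in PANC-1 (mean ± SD, n = 3 per group, here and in the next sentence). It went from 754 ± 106 to 459 ± 3.63 FPKM in MIA PaCa-2, where control replicate 2 had 877 FPKM and the other controls 694 and 692 FPKM, and from 422 ± 8.42 to 479 ± 16.6 FPKM in PaTu 8988T. MCM7 had the largest share of the sum in every library of every line. Its share in controls was 34.7% in PANC-1, 41.0% in MIA PaCa-2 and 25.7% in PaTu 8988T.

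The largest change of a share with the knockdown was -1.31 percentage points, that of MCM4 in MIA PaCa-2 (exact permutation p = 0.4). Without control replicate 2, the change of MCM4 there was -2.90 points, that of MCM7 2.39 points rather than 1.21, and that of MCM2 1.35 points rather than 0.31. In PANC-1, the share of MCM5 went from 9.38% to 8.08%, that of MCM3 from 18.9% to 20% and that of MCM6 from 10.7% to 11.6%, each with separate libraries and an exact two-sided permutation p of 0.1, the smallest that 3 libraries against 3 can give. In PaTu 8988T, MCM3 also went from 17.4% to 18.6% (exact permutation p = 0.1). In MIA PaCa-2, MCM3 went from 9.97% to 9.06% (exact permutation p = 0.1), the opposite direction. Of the 18 shares tested, 5 reached this smallest p, and adjusted over the 18 none could pass the threshold.

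By mean FPKM, the ring subunits were above CDC45 and the GINS subunits in every group, in controls and knockdown alike. In PANC-1 controls the order was MCM7, MCM3, MCM4, MCM2, MCM6, MCM5, CDC45, GINS1, GINS3 and GINS2, with CDC45 and GINS1 overlapping at 12 FPKM each and every other neighbouring pair having separate libraries. In MIA PaCa-2 controls GINS3 was lowest, at 13.3 FPKM. There the neighbouring pairs MCM2 and MCM4, MCM6 and MCM3, MCM3 and MCM5, and GINS2 and GINS1 overlapped. In PaTu 8988T controls the overlapping pair was CDC45 and GINS2, at 11.6 and 11.5 FPKM. In the knockdown groups the overlapping neighbours were MCM2 and MCM6 and also CDC45 and GINS1 in PANC-1, GINS1 and GINS3 in MIA PaCa-2, and MCM2 and MCM3 in PaTu 8988T. The highest mean was 22.9 times the lowest in the PANC-1 controls and 45.3 times in the knockdown. For MIA PaCa-2 that ratio was 23.4 in controls and 25.5 after knockdown, and for PaTu 8988T it was 12.7 and then 13.5. GINS2 moved from eighth of the 10 to last in MIA PaCa-2.

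The 10 genes moved together across libraries. After the log2 values were centred within each line, the Pearson correlation between pairs of the 10 genes over 18 libraries had a median of 0.918, from 0.806 for MCM3 and GINS3 to 0.991 for MCM5 and MCM7. The libraries share the condition, so the correlation describes the knockdown contrast as well as the spread. Correlations over the 18 libraries include MIA PaCa-2 control replicate 2 and were not computed without it. Pairs of other genes were not computed for comparison. Among 9073 other genes, those most like the mean of the 10 were UHRF1 (r = 0.994), which maintains DNA methylation after replication, CCNB1 (r = 0.994), the cyclin of mitotic entry, LMNB1 (r = 0.993), a nuclear lamin, CTNNA1 (r = 0.990), a cell adhesion protein, and CDCA5 (r = 0.989), a cohesin regulator. UHRF1 fell with a log2 change of -1.71 in PANC-1 and rose with 0.15 in PaTu 8988T. In MIA PaCa-2 it fell with -1.53, or -1.42 without control replicate 2. Within PaTu 8988T alone, r was 0.951 for UHRF1, 0.847 for CCNB1, 0.933 for LMNB1, 0.596 for CTNNA1 and 0.594 for CDCA5. CCNB1, CTNNA1 and CDCA5 did not pass the test there, with log2 changes of 0.10, 0.02 and 0.05.

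By the GENCODE annotation of GRCh38, the helicase genes lie on 8 chromosomes. MCM3 is on chromosome 6 (52264009 to 52284881, minus strand, 17 exons in its longest coding transcript), MCM6 on chromosome 2 (135839626 to 135876426, minus strand, 17 exons), MCM4 on chromosome 8 (47960185 to 47978160, plus strand, 18 exons) and MCM5 on chromosome 22 (35400063 to 35425430, plus strand, 17 exons). CDC45 is also on chromosome 22 (19479459 to 19520612, plus strand, 20 exons), GINS1 on chromosome 20 (25407727 to 25452628, plus strand, 7 exons) and GINS3 on chromosome 16 (58295080 to 58406144, plus strand, 4 exons). The values are per gene and do not separate its transcripts.

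Some neighbours lie close enough to share sequence with the helicase genes. Library strand was not given in the sources used here, so reads from overlapping genes on opposite strands cannot be told apart. In GRCh38, MCM2 (chromosome 3, 127598223 to 127622436, plus strand, 16 exons in its longest coding transcript) overlaps TPRA1 by 45 bases. MCM7 (chromosome 7, 100092728 to 100101940, minus strand, 15 exons) overlaps AP4M1 by 392 bases, and GINS2 (chromosome 16, 85676198 to 85690073, minus strand, 5 exons) overlaps GSE1 by 7 bases. In the order PANC-1, MIA PaCa-2 and PaTu 8988T, TPRA1 had log2 changes of 0.07, -0.37 and -0.15, none passing the limma test. AP4M1 had -0.10, -0.21 and -0.20, passing in PaTu 8988T only (adjusted p = 0.0442). GSE1 had -0.19, -0.06 and -0.28, passing in PANC-1 (adjusted p = 0.00393) and PaTu 8988T (adjusted p = 0.00438). Without control replicate 2, MIA PaCa-2 had -0.11 for TPRA1, -0.01 for AP4M1 and -0.06 for GSE1. The start of MCM4 lies 2 bases from the start of PRKDC, the catalytic subunit of DNA-PK, on the opposite strand. PRKDC rose in both lines in which MCM4 fell, by a log2 change of 0.11 (SE 0.0242 with adjusted p = 0.00178) in PANC-1 and of 0.58 (SE 0.137 with adjusted p = 0.0163) in MIA PaCa-2, or 0.42 without control replicate 2. In PaTu 8988T its value was 0.01 (adjusted p = 0.863). CDC45 starts 244 bases from UFD1 on the opposite strand. UFD1, which serves in removal of the helicase from chromatin, fell with a log2 change of -0.16 in PANC-1 (adjusted p = 0.00286), and its value was -0.23 in MIA PaCa-2 (adjusted p = 0.0317), or -0.22 without control replicate 2, where CDC45 had -1.43 and -0.54. UFD1 had 0.06 in PaTu 8988T (adjusted p = 0.381 by limma). PRSS54, whose start lies 33 bases from that of GINS3 on the opposite strand, was not tested in any line. These neighbours were chosen by position, after the fold changes had been seen.

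GINS4, the remaining GINS subunit, fell from 3.04 ± 0.207 to 1.95 ± 0.262 FPKM in PANC-1 (mean ± SD, n = 3 per group), and its log2 change was -0.62 (SE 0.111 with adjusted p = 0.000589). It fell from 45.1 ± 1.94 to 31.6 ± 1.05 FPKM (mean ± SD, n = 3 per group) in MIA PaCa-2, with a log2 fold change of -0.51 (SE 0.0723 with adjusted p = 0.0024) that was also -0.51 without control replicate 2. In PaTu 8988T, GINS4 had 19.1, 19.9 and 20.5 FPKM in controls and 18.2, 19.6 and 18.9 FPKM in the knockdown (log2 fold change -0.07, adjusted p = 0.284).

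The list of helicase partners, GINS4 included, also held the related genes MCM8, MCM9 and HROB, and 11 of its genes were tested. Of these, 9 fell and 2 rose in PANC-1, and 6 fell and none rose in MIA PaCa-2. In PaTu 8988T, none fell and 6 rose. Over all tested genes, 32.2% fell and 40.1% rose in PANC-1, 21.7% fell and 18.7% rose in MIA PaCa-2, and 18.5% fell and 20.9% rose in PaTu 8988T. The median log2 fold changes of the list were -0.49, -0.51 and 0.17. MCM10, which helps to activate the helicase, fell from 5.05 ± 0.372 to 1.34 ± 0.369 FPKM (mean ± SD, n = 3 per group) in PANC-1, and its log2 fold change was -1.87 (SE 0.17 with adjusted p = 4.47e-06). It was -1.29 in MIA PaCa-2 (adjusted p = 0.000598), or -1.41 without control replicate 2. CLSPN, which couples the fork to the replication checkpoint, fell in PANC-1 and MIA PaCa-2 with log2 changes of -1.30 and -0.98 (-1.06 without control replicate 2), and rose in PaTu 8988T with 0.40 (adjusted p = 0.00133). WDHD1, which links the helicase to DNA polymerase alpha, had -0.85 (adjusted p = 5.44e-06) in PANC-1. In PaTu 8988T, MCMBP and DONSON, partners of the ring, rose with log2 fold changes of 0.23 each. The listed genes that rose in PANC-1 were DONSON and MCM9, at 0.43 and 0.41. They are named outside the rule for the text, after their values were seen. Without MIA PaCa-2 control replicate 2, 9 listed genes fell and 1 rose in that line, HROB, named after its value was seen. The median was then -0.50, where 39.8% of all tested genes fell and 35.4% rose.

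The 9 origin licensing genes load the ring on DNA or, like GMNN, regulate its loading. Of these, 6 fell and 1 rose in PANC-1, 5 fell in MIA PaCa-2, and 1 fell and 3 rose in PaTu 8988T. Their median log2 fold changes were -0.46, -0.41 and 0.07. The shares of all tested genes that fell were 32.2%, 21.7% and 18.5%, and 40.1% rose in PANC-1 and 20.9% in PaTu 8988T. CDC6, which loads the ring together with CDT1, fell with a log2 change of -1.05 in PANC-1 (adjusted p = 9.57e-08), fell with -0.85 in MIA PaCa-2 (adjusted p = 0.000622) and -0.89 without control replicate 2, and rose with 0.25 in PaTu 8988T (adjusted p = 0.00309). CDT1 had -1.11 (adjusted p = 1.65e-06) in PANC-1. ORC3, a subunit of the origin recognition complex, fell in all 3 lines, with log2 fold changes of -1.47 in PANC-1, -1.22 in MIA PaCa-2, or -1.39 without control replicate 2, and -0.44 in PaTu 8988T (adjusted p = 0.000671). ORC6, another subunit, rose by 0.22 on the log2 scale in PaTu 8988T, and ORC1 fell in MIA PaCa-2 with a log2 fold change of -0.76, or -0.73 without that control. The gene that rose in PANC-1 was ORC5, at 0.29, named after its value was seen. Without MIA PaCa-2 control replicate 2, 6 licensing genes fell in that line, with a median of -0.61, against 39.8% of all tested genes.

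Of 11 origin firing genes, which activate loaded rings, 7 fell and 1 rose in PANC-1, 5 fell in MIA PaCa-2, and 1 fell and 4 rose in PaTu 8988T. The median log2 fold changes were -0.46, -0.44 and 0.06. The shares of all tested genes that fell were 32.2%, 21.7% and 18.5%, with 40.1% rising in PANC-1 and 20.9% in PaTu 8988T. CCNE2 had -1.60 (adjusted p = 1.11e-06) in PANC-1. Its value was -1.52 (adjusted p = 0.00515) for MIA PaCa-2, or -1.80 without control replicate 2, while CCNA2 had -1.16 and RECQL4 -0.84 in PANC-1. CDK2, the kinase of these cyclins, fell in MIA PaCa-2 with a log2 change of -0.44 (adjusted p = 0.00428) and -0.46 without that control, and rose in PaTu 8988T with 0.22 (adjusted p = 0.00112). DBF4B, an activator of the CDC7 kinase, had -0.60 in MIA PaCa-2, or -0.51 without that control, and CDC7 and CCNE1 rose in PaTu 8988T with 0.42 and 0.26. The gene that rose in PANC-1 was CCNE1, at 0.29, and the gene that fell in PaTu 8988T was TICRR, at -0.19. TICRR, which brings firing factors to the ring, was named after its value was seen. Without MIA PaCa-2 control replicate 2, 9 firing genes fell in that line, with a median of -0.51, against 39.8% of all tested genes.

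The 8 unloading genes serve in taking the helicase off chromatin. Of these, 6 fell in PANC-1, 6 fell and 1 rose in MIA PaCa-2, and 3 rose in PaTu 8988T. Their median log2 fold changes were -0.21, -0.45 and 0.12. Of all tested genes, 32.2% fell in PANC-1, 21.7% fell and 18.7% rose in MIA PaCa-2, and 20.9% rose in PaTu 8988T. LRR1, which directs the ligase that marks MCM7 at termination, had log2 fold changes of -0.42, -0.71 and 0.26 in the order PANC-1, MIA PaCa-2 and PaTu 8988T. VCP, the segregase that pulls the helicase apart, had in the same order -0.31 (adjusted p = 1e-06), -0.55 (adjusted p = 0.00453) and 0.16 (adjusted p = 0.0117). TRAIP had -0.51 in PANC-1, CUL2 -0.68 in MIA PaCa-2, and NPLOC4 0.22 in PaTu 8988T. The gene that rose in MIA PaCa-2 was UBXN7, at 0.63, named after its value was seen. Without control replicate 2, 6 of the 8 fell and 1 rose in that line, against 39.8% and 35.4% of all tested genes. The median was then -0.36, and the log2 changes were -0.71 for LRR1, -0.46 for VCP, -0.81 for CUL2 and 0.40 for UBXN7.

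Cell-cycle markers that were in none of these lists were counted in the same way. Of 32 S-phase markers, 29 fell and 2 rose in PANC-1, 21 fell in MIA PaCa-2, and 15 rose in PaTu 8988T, with median log2 fold changes of -0.79, -0.53 and 0.13. Their summed level went from between 662 and 680 to between 404 and 406 FPKM in PANC-1, from 1230 to 1420 to between 855 and 865 FPKM in MIA PaCa-2, and from 1010 to 1030 to between 1150 and 1170 FPKM in PaTu 8988T. Of 52 G2/M markers, 49 fell and 1 rose in PANC-1, 34 fell in MIA PaCa-2, and 6 fell and 11 rose in PaTu 8988T, with median log2 fold changes of -1.04, -0.66 and 0.01. Over all tested genes, 32.2% fell and 40.1% rose in PANC-1, and 21.7% fell in MIA PaCa-2. In PaTu 8988T, 18.5% fell and 20.9% rose, so the G2/M markers that rose there were at about the share of all genes. Without MIA PaCa-2 control replicate 2, 31 S-phase and 49 G2/M markers fell in that line, with medians of -0.67 and -0.82, against 39.8% of all tested genes. Among the markers that rose in PANC-1 were RPA2, a subunit of the single-stranded DNA binding complex, at 0.32 and CBX5, a heterochromatin protein, at 0.29, named after their values were seen. The part of cell-cycle distribution in the change of the helicase genes was not tested.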

How the data were processed

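RNA-seq was described for 18 libraries, 3 control and 3 OFD1 knockdown libraries in each of 3 lines, grouped by the sample titles. The authors deposited FPKM values, already scaled by gene length and library reads. The methods of the study name HISAT2 for alignment and HTSeq-count for counting. The submitters' processing notes name the builds hg38, GRCm38 and mm10, and the build behind the table was not given in the sources used here. Labels name an RNeasy extraction and a SMARTer kit, whereas the methods name TRIzol and a VAHTS kit. In PaTu 8988T, the source labels of both groups name other lines for replicates 2 and 3, and the titles were followed.

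Reads were recovered from the FPKM steps for all genes above 0 (16308 in PANC-1, 20604 in MIA PaCa-2 and 21498 in PaTu 8988T). A value counted as whole within 0.002 reads or 1e-07 of its reads, whichever was larger. The smallest gene length giving whole reads was taken, so the reads of some genes are a fraction of the true ones. ORC5, for example, had 3952 bases in PANC-1 and 1976 in MIA PaCa-2. Voom and the chi-square values below rest on these reads. Genes averaging 1 FPKM or more in a line were tested there by limma 3.58.1 (R 4.3.3, eBayes with a variance trend) on log2(FPKM + 0.1), with Benjamini-Hochberg adjustment over all genes and a threshold of 0.05. Fold changes are on that scale, which understates changes of low genes. Exact permutation tests used SciPy. Scripts were tested on simulated data.

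No pair of replicates agreed within counting noise (chi-square divided by its degrees of freedom, 3.05 to 132.0 over 18 pairs). The labels do not say whether replicates were separate cultures, so p-values measure the spread between these samples. Same-numbered libraries had correlations of deviations from -0.111 to 0.13, so numbers were not treated as pairs. Leave-one-out, other pseudocounts, filters, centring, weights, a replicate block and voom on recovered reads were alternatives. Lists of the other genes and the activator levels relative to the ring, both without MIA PaCa-2 control replicate 2, were added after seeing the data. The text names the 10 genes, OFD1, GINS4, the 3 genes with the smallest p-values of each partner list in each line and the 5 genes most like the 10 across libraries. The members and lists were chosen with earlier results of these data known.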

Additional observations from a re-analysis of the deposited data

Results flagged for a closer look

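These results were flagged because the knockdown effect differed between lines in the interaction test, for 23 combinations of gene and line pair. Of all tested genes, 43.4% differed between PANC-1 and MIA PaCa-2, 35.8% between PANC-1 and PaTu 8988T, and 52.9% between MIA PaCa-2 and PaTu 8988T. For PANC-1 minus MIA PaCa-2, the differences of log2 fold change were -0.89 for CDC45, -0.57 for GINS1 and -0.42 for GINS3.

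For PANC-1 minus PaTu 8988T, they were -1.54 for CDC45, -1.63 for GINS1, -1.66 for GINS2 and -0.81 for GINS3, and -1.05 for MCM2, -0.97 for MCM3, -0.95 for MCM4, -1.14 for MCM5, -0.87 for MCM6 and -0.93 for MCM7. For MIA PaCa-2 minus PaTu 8988T, they were -0.65 for CDC45, -1.06 for GINS1, -1.57 for GINS2 and -0.39 for GINS3, and -0.82 for MCM2, -1.12 for MCM3, -0.97 for MCM4, -0.93 for MCM5, -0.76 for MCM6 and -0.85 for MCM7. Without MIA PaCa-2 control replicate 2, which stood apart from its group, 6 genes rather than 3 differed between PANC-1 and MIA PaCa-2. The share of all tested genes that differed without that library was not counted.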

How the results depend on the processing

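In the alternatives run, no helicase gene rose past the threshold in PANC-1 or MIA PaCa-2, and none fell past it in PaTu 8988T. With median-centred libraries the median log2 fold change in PANC-1 was -0.91. With library weights it was -0.59 in MIA PaCa-2 and 0.17 in PaTu 8988T, 2 genes were past 2-fold in MIA PaCa-2 and 6 genes differed between PANC-1 and MIA PaCa-2. Leaving out 1 library gave medians from -0.79 to -0.59 in MIA PaCa-2 and 1 to 2 genes past 2-fold there. It gave 3 to 6 genes differing between PANC-1 and MIA PaCa-2. Shares of all tested genes that differed between lines were not counted in the alternatives. With a pseudocount of 1, the difference of GINS2 between PANC-1 and MIA PaCa-2 was 0.27 (adjusted p = 0.0339 by limma), against -0.09 with 0.1, and GINS2 had 1.23 FPKM after knockdown in PANC-1, about the size of that pseudocount. With it the log2 change of GINS2 in PANC-1 was -1.19, smaller than that of GINS1, -1.31, and of CDC45, -1.27. At a minimum of 5 FPKM, GINS2 and GINS3 were not tested in PANC-1. Of the fold changes within lines, OFD1 included, 454 alternatives left a call or its absence unchanged, 32 lost a call and 4 gained one. Of the differences between lines, 795 left it unchanged and 8 gained a call. The remaining 1, GINS2 with a pseudocount of 1, was called with the sign opposite to its uncalled main value. With the replicate block, GINS3 in MIA PaCa-2 had an adjusted p of 0.1, MCM5 in PaTu 8988T 0.0447 and GINS1 there 0.0525, and 9 genes fell in MIA PaCa-2. Depth limits GINS2 in PANC-1 most, with 94 reads in its lowest library.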
